A study of Mus musculus with 4 samples.

Results

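The results concern 9 transcription factors of epidermal fate: Trp63, Klf4, Klf5, Ovol1, Zfp750, Grhl3, Grhl1, Foxn1 and Tfap2c. They were taken by symbol, and each matched 1 of the 56980 genes in the count matrices. Single-cell RNA-seq was done on 4 libraries of mouse dorsal skin labelled E16.5 and sorted for Epcam, an epithelial surface protein, and for α6 integrin, part of the anchor of basal cells to the matrix below. The 2 Ctrl libraries carried floxed Suv39h1 and Setdb1 alleles and a constitutive Suv39h2 deletion without Cre. The 2 libraries called TKO, for triple knockout, had these alleles and K14CreERT2, a tamoxifen-dependent Cre driven by a basal keratinocyte promoter, and both groups received tamoxifen. SUV39H1, SUV39H2 and SETDB1 deposit H3K9me3, a mark of silent chromatin, so by the labels both groups lacked Suv39h2, and Cre was the difference between them. Each library was 1 embryo, and recombination was mosaic per the study's methods. With 2 embryos a group, p-values measure the spread between these few libraries.

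The epidermis renews from basal keratinocytes, which attach to the basement membrane, leave it as early suprabasal cells and then become spinous cells on the way to the barrier. Trp63 encodes p63, the factor that sets up and keeps the basal keratinocyte programme. Klf4, Zfp750, Grhl1, Grhl3 and Ovol1 are known for terminal differentiation and barrier formation, Klf5 and Tfap2c for keratinocyte growth and early differentiation, and Foxn1 for the first steps of differentiation and for hair. Hair follicles arise from the same sheet as placodes, so the same factors can be followed in both branches.

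Values are given as CPM, the UMIs of a gene per 1000000 UMIs of that library within a class of cells. A UMI marks 1 captured molecule, so CPM was not divided by gene length, and levels were compared between classes and libraries, not between genes. The libraries held 3804 to 5785 barcodes and 70749496 to 89655247 UMIs. After filters, 9177 keratinocytes remained, between 1562 and 2987 per library, with median depths of 17329 to 30072.5 UMIs per cell, deeper in TKO. Libraries shared 2 to 12 barcodes in pairs. Setdb1 was measured at 67.9 and 58.2 CPM in Ctrl against 39.5 and 42.5 CPM in TKO keratinocytes, while Suv39h1 was at 24.4 and 25.3 against 24.8 and 20.01 CPM. Suv39h2, deleted in both groups by the labels, was at 14.04 and 17.1 against 22.6 and 16.05 CPM. These reads come from transcript ends and need not lie in the deleted exons, so they do not check the labelled deletions of Suv39h1 and Suv39h2, whose UMIs were present in all 4 libraries.

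Cells were clustered without the 9 members and without 1370 genes that differed between the genotypes, and clusters were named from markers. The basal-like class held 1365 and 1583 Ctrl and 970 and 905 TKO cells. The early suprabasal-like class held 228 and 182 against 69 and 99 cells, the spinous-like class 591 and 386 against 155 and 312 cells, and the hair follicle-like class 608 and 811 against 347 and 452 cells. The sort selected α6-positive cells, so these numbers were not read as shares of the tissue. Clusters 3 and 11 were led by markers of another class. Cluster 3, called basal-like, was led by haemoglobin genes, although 1 of its 787 cells held over 1% haemoglobin UMIs. Cluster 11, called early suprabasal-like, had Krt15, a basal marker, and none of its own markers among its 10 leading genes, so it is also given apart from cluster 14, the other cluster of that class. Cluster 14 had no early suprabasal marker among its leading genes either. In bulk sums of a class, fewer cells expressing a gene and less RNA per cell cannot be told apart.

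These upstream sequences are shown because Klf5 and Grhl1 fell together in hair follicle-like cells and Zfp750 was higher in derepressed basal-like cells. Each is the 200 bases before the start of the GENCODE vM39 canonical transcript on GRCm39, written 5′ to 3′ on the gene's strand. Klf5 lies at chr14:99535886-99536085 on the plus strand, Grhl1 at chr12:24622027-24622226 on the plus strand and Zfp750 at chr11:121410621-121410820 on the minus strand. Capitals mark matches, on either strand, to 5 motifs: AACNNGTT for GRHL factors, TGANTCA for AP-1, GCCNNNGGC for TFAP2 factors, GGGCGG for the GC box of SP and KLF factors and CCGTTA for OVOL factors.
Klf5: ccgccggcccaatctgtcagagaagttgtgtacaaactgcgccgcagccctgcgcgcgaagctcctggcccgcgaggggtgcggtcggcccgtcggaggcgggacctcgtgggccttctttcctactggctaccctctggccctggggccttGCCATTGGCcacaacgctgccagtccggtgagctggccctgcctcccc
Grhl1: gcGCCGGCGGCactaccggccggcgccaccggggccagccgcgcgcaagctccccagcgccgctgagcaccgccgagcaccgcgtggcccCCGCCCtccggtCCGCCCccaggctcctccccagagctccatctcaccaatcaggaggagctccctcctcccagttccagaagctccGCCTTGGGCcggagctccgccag
Zfp750: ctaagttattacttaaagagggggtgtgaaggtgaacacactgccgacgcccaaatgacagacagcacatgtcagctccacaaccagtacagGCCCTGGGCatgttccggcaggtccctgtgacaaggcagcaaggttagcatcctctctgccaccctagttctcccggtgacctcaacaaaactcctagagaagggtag
The TFAP2 match, present in 11.5% of 21757 protein-coding upstream sequences of the same length, was found in 4 of the 9 members, Klf4, Klf5, Zfp750 and Grhl1. The GC box, present in 34.8% of all sequences, was found in 6 of the 9 members, among them Grhl1 and not Klf5 or Zfp750. The AP-1, GRHL and OVOL motifs, present in 4.94%, 2.97% and 1.9%, had no match in the sequences shown. Over the 9 members they were found in 0, 1 and 1. A match is a run of letters and not a bound site. In the annotation, exons of Ovol1, Zfp750 and Grhl3 overlap exons of genes on the opposite strand, which the stranded 3′ kit keeps apart where counting used strand.

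In Ctrl, Trp63 was highest in basal-like cells and stepped down with each layer. Its level was 838 and 753 CPM in the basal-like cells of Ctrl replicates 1 and 2, 544 and 464 CPM in early suprabasal-like cells and 373 and 356 CPM in spinous-like cells. Hair follicle-like cells held 780.1 and 807 CPM, within the range of the basal-like values. The other layers did not overlap with each other. Trp63 reads come from the 3′ end, and the TAp63 and ΔNp63 forms, which start at different promoters, could not be told apart.

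The differentiation factors ran the other way. Klf4 in Ctrl was 269 and 353 CPM in basal-like, 460.1 and 472 CPM in early suprabasal-like and 806 and 781 CPM in spinous-like cells, and it was lowest in hair follicle-like cells at 110.5 and 200.3 CPM. Grhl1, which acts on desmosomal cadherin genes, rose steepest along the layers, from 5.97 and 6.47 CPM to 93.8 and 65.9 CPM and then to 240.3 and 214 CPM, a spinous-like level 40.3 and 33.1 times the basal-like one. Zfp750, a p63 target needed for differentiation, went from 9.76 and 9.27 CPM in basal-like cells to 160.2 and 160.5 CPM in early suprabasal-like cells and 161 and 189 CPM in spinous-like cells. These values are descriptions without a test, since the classes were made from the same cells.

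Patterns of onset could be read from the order of the levels. Grhl3, Ovol1, Foxn1 and Klf5 reached their level in early suprabasal-like cells, since the spinous-like values overlapped with the early suprabasal-like ones in Ctrl. Zfp750 was close to this, its spinous-like level being 1.004 and 1.18 times the early suprabasal-like one. Klf4 and Grhl1 rose again from early suprabasal-like to spinous-like cells, by 0.77 ± 0.06 and 1.52 ± 0.24 log2 units (SD, n = 2 libraries, on log2(CPM + 1)). Grhl3, needed for barrier formation, was 8.05 and 9.68, then 44.0 and 54.6, then 43.6 and 47.4 CPM. Foxn1 was 2.51 and 2.12, then 29.9 and 19.0, then 29.5 and 26.5 CPM. Klf5 was 184 and 253, then 467 and 602, then 411 and 532 CPM. Ovol1, a repressor that promotes exit from the cell cycle, was 20.8 and 46.0, then 85.2 and 156, then 97.2 and 135 CPM. Tfap2c stood apart as nearly level, with 104 and 131, then 135 and 148, then 88.1 and 105.1 CPM, and 144 and 149 CPM in hair follicle-like cells. For this gene the basal-like values overlapped with the spinous-like ones.

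**Figure D1:**
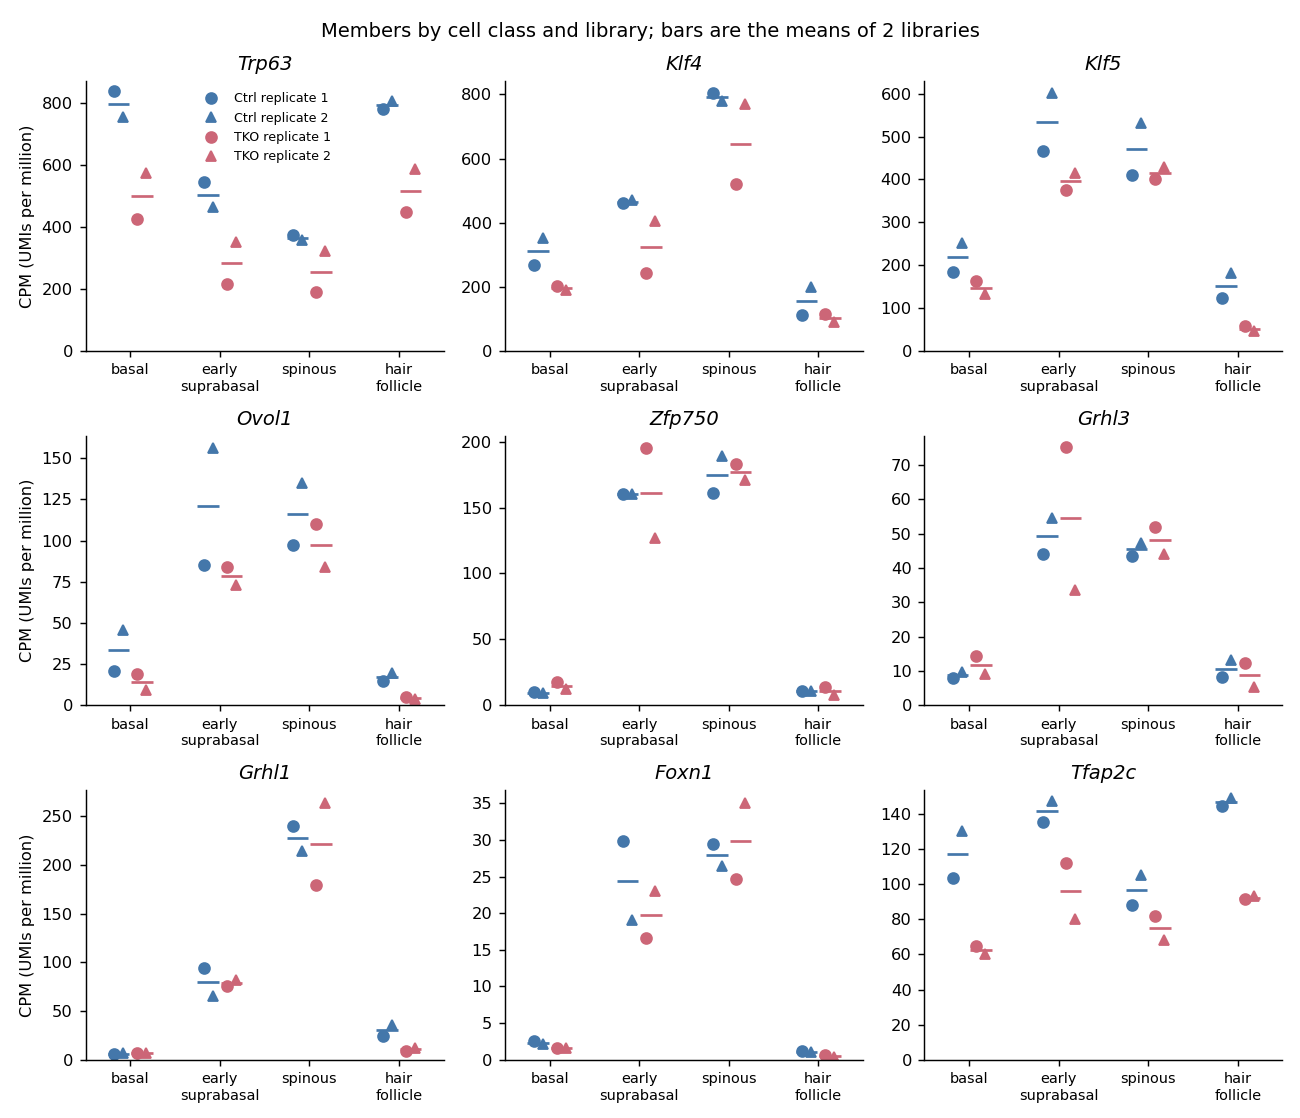
Each panel gives 1 gene in CPM (y axis, starting at 0) in 4 cell classes (x axis). Points are single libraries, circles for replicate 1 and triangles for replicate 2, and bars are means of 2 libraries. Trp63 falls along the layers, from 838 and 753 CPM in Ctrl basal-like cells to 373 and 356 CPM in spinous-like cells, while Grhl1 climbs to 240.3 and 214 CPM.

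Detection per cell gave the same order. With each cell thinned to 5000 UMIs, which left out 4 to 38 shallower cells per library, Zfp750 had a UMI in 4.4% and 4.0% of Ctrl basal-like cells, 50.2% and 52.5% of early suprabasal-like cells and 56.1% and 55.7% of spinous-like cells. In immune-like and fibroblast-like cells, which should lack it, the share was 0% to 3.1%. Grhl1 was detected in 2.7% and 3.4% of Ctrl basal-like cells, in 0% to 3.1% of immune-like cells and in 0% of fibroblast-like cells. The 3.1% was 2 of 64 immune-like cells of Ctrl replicate 1. Basal-like detection of Grhl1 was thus low, whereas 65.9% and 62.3% of spinous-like cells had a UMI. Without thinning, the Grhl1 shares in Ctrl were 9.38% and 8.46% of basal-like and 97.5% and 92.2% of spinous-like cells. Trp63 was found in 94.6% and 92.8% of Ctrl and 80.5% and 87.3% of TKO basal-like cells. Klf4 is no marker of keratinocytes here, since 40.4% to 79.6% of fibroblast-like cells held a UMI. Median depths were 17142 to 29635 UMIs in basal-like, 13390 to 18240 in immune-like and 12975 to 18058 in fibroblast-like cells.

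The comparison of TKO with Ctrl asked whether loss of the H3K9me3 enzymes moved these factors in each layer. In basal-like cells, Tfap2c, Klf4 and Trp63 fell, and no member rose. Sums per library were tested with edgeR's quasi-likelihood test over 17504 genes, with Benjamini-Hochberg adjustment and a threshold of 0.05. That 3 of the 9 members were lowered stands against 4.71% of all genes tested. The median log2 change was -0.58 over the members and -0.02 over all genes tested.

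Tfap2c was at 104 and 131 CPM in Ctrl and at 65.1 and 60.3 CPM in TKO basal-like cells. All TKO values lay below all Ctrl values, and the log2 change was -0.91 ± 0.13 (SE, edgeR adjusted p = 0.0105). It was called under each of 19 alternatives, with adjusted p from 4.4e-07 to 0.0231. Klf4 was at 269 and 353 CPM in Ctrl and 202 and 189 CPM in TKO, without overlap and with a log2 change of -0.68 ± 0.15 (edgeR adjusted p = 0.0311). Leaving out Ctrl replicate 2, the highest library, ended that call at -0.46 (edgeR adjusted p = 0.121). Trp63 was at 838 and 753 CPM in Ctrl and 426 and 572 CPM in TKO, also apart, with a log2 change of -0.68 ± 0.17 (edgeR adjusted p = 0.0453). This call was close to the threshold. It was lost without Ctrl replicate 1 (adjusted p = 0.135 in edgeR), without Ctrl replicate 2 (0.0535) and without TKO replicate 1 (0.0572, log2 change -0.45), and also with doublets kept (0.0686) and with at least 3000 detected genes (0.0543) and without cluster 15 (0.0569), a basal-like cluster led by Ptprt and Npffr1 that was left out after its values were seen, and the same change was -0.93 without TKO replicate 2.

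Klf5, Ovol1 and Zfp750 did not pass in basal-like cells. Klf5 was at 184 and 253 CPM in Ctrl against 162 and 132 CPM in TKO (log2 change -0.58 ± 0.17, edgeR adjusted p = 0.0795). Ovol1 was at 20.8 and 46.0 CPM against 19.3 and 8.98 CPM (log2 change -1.26 ± 0.44, edgeR adjusted p = 0.118), and the Ctrl replicates were as far apart as the groups. Without Ctrl replicate 1 the Ovol1 change was -1.72 (edgeR adjusted p = 0.0211), and without TKO replicate 1 it was -1.87 (edgeR adjusted p = 0.00285). Without those libraries Klf5 also passed, at -0.79 (edgeR adjusted p = 0.0301) and -0.70 (edgeR adjusted p = 0.0172). Zfp750 was at 9.76 and 9.27 CPM in Ctrl against 17.7 and 12.3 CPM in TKO, higher in both TKO libraries (log2 change 0.64 ± 0.19, edgeR adjusted p = 0.0735). Without cluster 15, which held 53 and 57 of the TKO cells, it was at 9.44 and 9.16 CPM in Ctrl against 14.04 and 8.32 CPM in TKO, so TKO replicate 2 then lay below Ctrl (log2 change 0.26 ± 0.24, edgeR adjusted p = 0.527). It passed without TKO replicate 2 (0.87, edgeR adjusted p = 0.00389) and without the haemoglobin-led cluster 3 (0.80, edgeR adjusted p = 0.0409). Grhl3 was at 8.05 and 9.68 against 14.4 and 9.17 CPM, with overlap (log2 change 0.40 ± 0.23, edgeR adjusted p = 0.311), and passed without TKO replicate 2 at 0.67 (edgeR adjusted p = 0.0305). Grhl1 and Foxn1 were at 5.97 to 7.06 CPM and 1.58 to 2.51 CPM over the 4 libraries, with adjusted p of 0.63 and 0.233 in edgeR. In all, TKO lay below Ctrl without overlap for 6 members, against 28.6% of the genes tested, and above it for 2, against 30.4%.

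**Figure D2:**
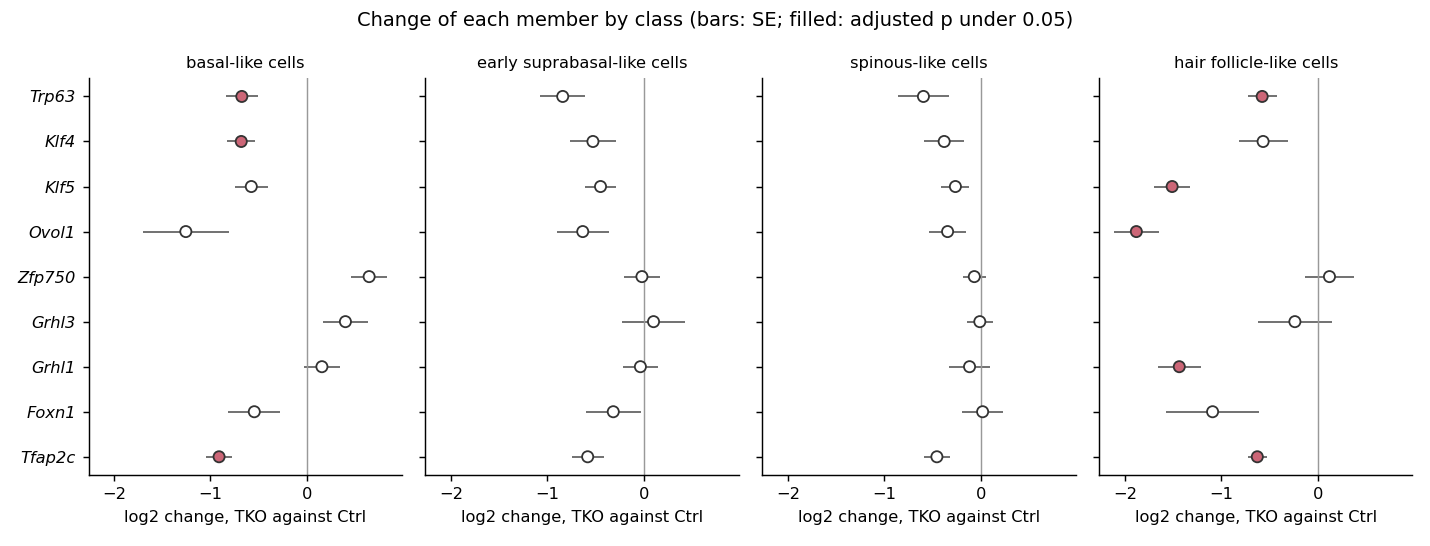
Log2 change of each member in TKO against Ctrl (x axis) in the 4 classes (panels), with bars for the SE of the edgeR fit on 2 libraries a group and filled points for adjusted p under 0.05. In basal-like cells Tfap2c, Klf4 and Trp63 are filled, in hair follicle-like cells Klf5, Ovol1, Grhl1, Tfap2c and Trp63, and none in the other classes.

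Part of the basal-like class was led by immediate early and stress genes such as Fosl1, Atf3 and Cxcl1, and the members differed between those clusters and the rest. These clusters made up 18.2% and 40.6% of basal-like cells in Ctrl and 33.5% and 14.03% in TKO, so Ctrl replicate 2 and TKO replicate 1 held the most. Exact 95% intervals, for counting error only, ran from 16.2% to 20.4%, 38.1% to 43.0%, 30.5% to 36.6% and 11.8% to 16.47%. Ovol1 was at 61.7, 92.3, 42.4 and 29.7 CPM in the stress-led clusters of Ctrl replicates 1 and 2 and TKO replicates 1 and 2, against 11.1, 11.6, 6.56 and 5.12 CPM in the other basal-like clusters. Every library had more Ovol1 in its stress-led cells. Klf4 was at 401, 471, 258 and 257 CPM in stress-led clusters and at 238, 266, 171 and 176 CPM elsewhere, and Klf5 followed the same order. Trp63 was the reverse, at 559.5, 529, 355 and 328 CPM in stress-led clusters against 904, 919, 466 and 618 CPM elsewhere.

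Leaving the stress-led clusters out, 5 members were lowered in basal-like cells instead of 3, against 5.46% of 16690 genes. Ovol1 then changed by -0.97 ± 0.19 (edgeR adjusted p = 0.0222) and Klf5 by -0.45 ± 0.11 (edgeR adjusted p = 0.0444), beside Tfap2c, Klf4 and Trp63 with adjusted p of 0.0117, 0.025 and 0.0291. This alternative was chosen after the values were seen. The source of the stress genes was not tested.

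**Figure D3:**
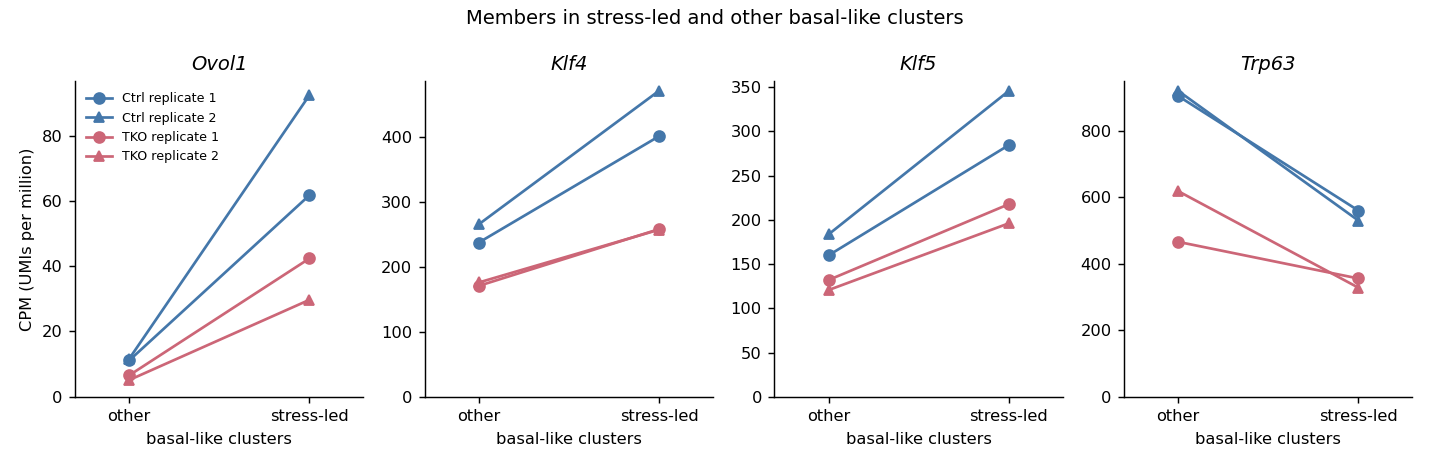
CPM (y axis, from 0) of Ovol1, Klf4, Klf5 and Trp63 in the stress-led and the other basal-like clusters, with a line for each library. Ovol1 is higher in stress-led clusters in all 4 libraries, from 11.6 to 92.3 CPM in Ctrl replicate 2, and Trp63 is lower there.

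In early suprabasal-like cells, 0 members were called by edgeR's quasi-likelihood test over 11733 genes, where 3.65% of genes were called, 1.58% lowered and 2.07% raised. At an unadjusted p under 0.05 in edgeR there were 3, as were 2501 of the 11733 genes. DESeq2 called Trp63 alone (adjusted p = 0.0146), where 3.78% of genes were called. Trp63 was at 544 and 464 CPM in Ctrl against 216 and 350 CPM in TKO (log2 change -0.84 ± 0.23, edgeR adjusted p = 0.0966). Tfap2c was at 135 and 148 against 112 and 80.3 CPM (-0.58 ± 0.16, edgeR adjusted p = 0.103). Klf5 was at 467 and 602 against 374 and 416 CPM (-0.45 ± 0.16, edgeR adjusted p = 0.164). TKO lay below Ctrl without overlap for 5 members, against 24.6% of genes. Zfp750, at 160.2 and 160.5 against 195 and 127 CPM, and Grhl3, at 44.0 and 54.6 against 75.1 and 33.7 CPM, had TKO values on both sides of Ctrl.

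Single libraries decided several of these values. Without TKO replicate 2, Trp63 (-1.28, edgeR adjusted p = 0.00603) and Klf4 (-0.9977, edgeR adjusted p = 0.0111) passed, without TKO replicate 1 Tfap2c did (-0.80, edgeR adjusted p = 0.04), and without Ctrl replicate 1 Ovol1 did (-1.02, edgeR adjusted p = 0.0318). Taken apart, cluster 14, led by genes of dividing cells, had Trp63 lowered by -0.95 ± 0.21 (edgeR adjusted p = 0.0451), and cluster 11 gave -0.66 ± 0.22 (edgeR adjusted p = 0.256). Of all genes tested, 1.38% were lowered in cluster 14 and 0.387% in cluster 11. The difference between these clusters was not tested.

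In spinous-like cells, 0 members were called over 13362 genes, where 1.68% were called, 0.509% lowered and 1.17% raised. Only Tfap2c had an unadjusted p under 0.05 in edgeR, where 2362 of the 13362 genes did. DESeq2 called 0 members, where 5.28% of genes were called. Tfap2c was at 88.1 and 105.1 CPM in Ctrl and 81.6 and 68.0 CPM in TKO (log2 change -0.46 ± 0.14, edgeR adjusted p = 0.176). TKO lay below Ctrl without overlap for 3 members, Trp63, Klf4 and Tfap2c, against 17.4% of genes. The level of Zfp750 was 161 and 189 CPM in Ctrl against 183 and 171 CPM in TKO (log2 change -0.07 ± 0.12), and that of Grhl3 was 43.6 and 47.4 against 51.9 and 44.2 CPM (-0.01 ± 0.13). Klf4 and Trp63 were lowest in TKO replicate 1, and TKO replicate 2 was close to Ctrl for Klf4. TKO replicate 1 had 521 CPM of Klf4 and 188 CPM of Trp63, and TKO replicate 2 had 770.2 and 322 CPM. Without TKO replicate 2, Trp63 (-1.07, edgeR adjusted p = 0.00636) and Klf4 (-0.72, edgeR adjusted p = 0.0287) passed.

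The spinous-like class was not alike in the 2 genotypes when components were left unaligned between libraries. A cluster of 385 cells, 95 and 284 of them from TKO and 4 and 2 from Ctrl, then separated and was left unnamed, and 88 and 270 of its TKO cells were spinous-like in the aligned clustering. In the TKO cells of that cluster Klf4 was at 511 and 765 CPM, Grhl1 at 188 and 254 CPM and Zfp750 at 189.5 and 174 CPM. In the spinous-like class of the unaligned clustering, which leaves them out, Klf4 (-0.90, edgeR adjusted p = 0.00929) and Grhl1 (-0.67, edgeR adjusted p = 0.037) were lowered, against 5.22% of genes. Other classes also split by genotype there. Of the unaligned basal-like clusters, one held 2 and 0 Ctrl against 320 and 105 TKO cells, another 4 and 0 against 227 and 161, and 1 more held 425 and 376 against 8 and 54. An early suprabasal-like cluster held 171 and 124 Ctrl against 5 and 43 TKO cells, and a hair follicle-like one 104 and 139 against 3 and 12. In the unaligned basal-like class Tfap2c (-0.92, edgeR adjusted p = 0.00685), Klf4 (-0.74, edgeR adjusted p = 0.0231) and Trp63 (-0.69, edgeR adjusted p = 0.0379) were lowered, against 5.26% of genes.

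In hair follicle-like cells Klf5, Ovol1, Grhl1, Tfap2c and Trp63 fell. That 5 of the 9 members were lowered stands against 5.77% of the 16060 genes tested, and the median log2 change was -0.63 over the members and -0.02 over all genes. Klf5 was at 124 and 181 CPM in Ctrl and 57.5 and 46.3 CPM in TKO, with a log2 change of -1.51 ± 0.19 (edgeR adjusted p = 0.00471). Ovol1 was at 14.5 and 19.7 against 5.17 and 3.85 CPM (-1.88 ± 0.24, edgeR adjusted p = 0.00472). Grhl1 was at 24.8 and 35.7 against 9.33 and 12.3 CPM (-1.44 ± 0.22, edgeR adjusted p = 0.00939). In each, the groups were well apart. Tfap2c was at 144 and 149 against 91.5 and 93.3 CPM (-0.63 ± 0.10, edgeR adjusted p = 0.00918). Trp63 was at 780.1 and 807 against 446 and 586 CPM (-0.58 ± 0.15, edgeR adjusted p = 0.0494). The Trp63 call was lost without Ctrl replicate 1 (adjusted p = 0.0874 in edgeR), Ctrl replicate 2 (0.131) or TKO replicate 1 (0.0973), with at least 3000 detected genes (0.0635), at Leiden resolution 2 (0.0505) and without cluster 13 (0.0525). TKO lay below Ctrl without overlap for 6 members, against 33.8% of genes, and above it for none, against 26.2%.

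The other members showed no called change there. Klf4 was at 110.5 and 200.3 CPM in Ctrl against 114 and 90.0 CPM in TKO (-0.57 ± 0.25, edgeR adjusted p = 0.191), with Ctrl replicate 2 far above the rest. Without Ctrl replicate 1 the change was -0.92 (edgeR adjusted p = 0.0125), and without Ctrl replicate 2 it was -0.10. The summed stress genes moved alongside, at 581 and 1413 CPM in Ctrl and 593 and 348 CPM in TKO hair follicle-like cells. Zfp750 was at 10.5 and 10.5 against 14.1 and 8.16 CPM (0.12 ± 0.26) and Grhl3 at 8.32 and 13.1 against 12.4 and 5.31 CPM (-0.24 ± 0.39). Foxn1 rested on few UMIs, 17 and 15 from Ctrl against 7 and 5 from TKO (-1.09 ± 0.48, edgeR adjusted p = 0.184).

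In Ctrl, most Klf5 and Ovol1 UMIs of the hair follicle-like class lay in 1 of its 4 clusters, cluster 13, which was led by Zfpm2, Pthlh, Acta2 and Penk and also held Krt79, a keratin of the upper follicle. In that cluster Klf5 was at 546 and 707 CPM in Ctrl and at 121 and 127.96 CPM in TKO, with a log2 change of -2.35 ± 0.19 (edgeR adjusted p = 2.02e-04). Ovol1 was at 79.3 and 81.3 against 16.4 and 2.67 CPM (-2.84 ± 0.41, edgeR adjusted p = 0.00306). Grhl1 was at 65.5 and 81.8 against 17.1 and 38.7 CPM (-1.54 ± 0.33, edgeR adjusted p = 0.018). These falls stand against 5.26% of the 10805 genes tested in cluster 13. In clusters 2, 7 and 9 Klf5 was at 50.9 to 99.1 CPM in Ctrl and 35.2 to 56.2 CPM in TKO.

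The cluster's own markers moved with these values. Cluster 13 held 95 and 142 Ctrl and 39 and 33 TKO cells, or 15.6% and 17.5% against 11.2% and 7.3% of hair follicle-like cells. Pthlh was at 351 and 496 CPM in Ctrl and 31.3 and 149 CPM in TKO, Krt15 at 8769.7 and 8614 against 1543 and 1637 CPM, and Krt79 at 237 and 256 against 0 and 176 CPM. Lef1, a placode factor, ran the other way, at 139.7 and 211 against 772 and 626 CPM. The TKO cells of this cluster thus differed from the Ctrl cells in the genes that define it, and the part of that in the Klf5 and Ovol1 values was not tested. Without cluster 13, Klf5 changed by -0.81 ± 0.17 (edgeR adjusted p = 0.0265) and Grhl1 by -1.28 ± 0.23 (edgeR adjusted p = 0.0151), both still called. Ovol1 at -0.99 ± 0.29 (edgeR adjusted p = 0.0759) and Trp63 at -0.56 ± 0.15 (edgeR adjusted p = 0.0525) were then no longer called.

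Taken one by one, the other clusters showed the Tfap2c, Trp63 and Klf5 changes in part. In cluster 2, led by Lhx2, Lgr5 and Wif1, Klf5 (-0.73 ± 0.15), Trp63 (-0.53 ± 0.12) and Grhl1 (-1.07 ± 0.24) fell, with edgeR adjusted p of 0.0269, 0.0366 and 0.0401, against 3.3% of genes lowered. In cluster 7, led by Dkk4, Fgf20, Shh and Edar, Tfap2c alone fell (-0.83 ± 0.14, edgeR adjusted p = 0.0178), against 1.62% of genes. In cluster 9, its dividing counterpart, Tfap2c (-1.06 ± 0.12, edgeR adjusted p = 0.00287), Klf4 (-0.71 ± 0.13, edgeR adjusted p = 0.0137) and Trp63 (-0.55 ± 0.14, edgeR adjusted p = 0.0429) fell, against 4.02% of genes. Differences between these clusters were not tested.

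**Figure D4:**
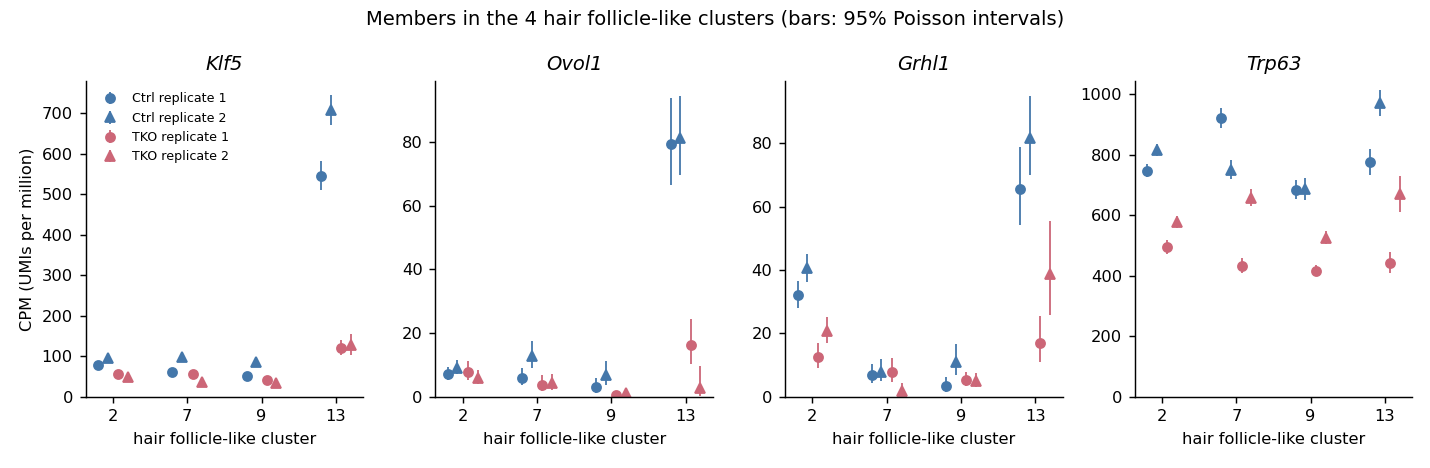
CPM (y axis, from 0) of Klf5, Ovol1, Grhl1 and Trp63 in the 4 hair follicle-like clusters (x axis) by library, with bars for exact 95% Poisson intervals, which cover counting error only. Klf5 and Ovol1 stand highest in the Ctrl cells of cluster 13 (546 and 707 CPM of Klf5) and are far lower in its TKO cells (121 and 127.96 CPM), while Trp63 is lower in TKO in every cluster.

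Whether the TKO effect itself differed from that in basal-like cells was tested by an interaction of genotype and class in 16 sums. These are 4 classes from each of 4 libraries, and library was a term in the fit. The change of Klf5 was lower in hair follicle-like than in basal-like cells, at -1.51 against -0.58 (difference -0.96 ± 0.17 log2, edgeR adjusted p = 0.0162). That of Grhl1 was -1.44 against 0.15 (difference -1.64 ± 0.31, edgeR adjusted p = 0.0261). Basal-like detection of Grhl1 was low, at 2.67% to 3.38% of thinned cells. It was 0% to 3.13% in immune-like cells, the top being 2 of 64 cells in Ctrl replicate 1, and 0% in fibroblast-like cells. Basal-like cells held 178 to 217 Grhl1 UMIs per library, and their change was 0.15 ± 0.19 (SE). The part of background in that value was not tested, which limits the Grhl1 difference. Neither Klf5 nor Grhl1 was called in basal-like cells, and between these classes 1.15% of 17453 genes had a called difference. Zfp750 differed between spinous-like and basal-like cells (-0.73 ± 0.19, edgeR adjusted p = 0.0352), where 6.95% of genes did, with changes of -0.07 and 0.64, neither of them called. Without cluster 15 the Zfp750 difference was -0.34 (edgeR adjusted p = 0.385) and no longer called. Between early suprabasal-like and basal-like cells 0 members passed, against 0.0115% of genes, with 1 at an unadjusted p under 0.05 in edgeR. DESeq2 was not run on the interaction. These 3 calls were lost at Leiden resolution 0.5 and with changed genes kept in clustering, where the called difference was instead Ovol1 between spinous-like and basal-like cells (1.14, edgeR adjusted p = 0.0452 and 0.93, edgeR adjusted p = 0.0488). That Ovol1 difference was not called in the fit reported here (0.81, edgeR adjusted p = 0.102), but also passed without an expression filter, without TKO replicate 1, with thinned cells and with doublets kept. Without cluster 13 the Klf5 difference was -0.23 (edgeR adjusted p = 0.778) and no longer called, and the Grhl1 difference was -1.45 (edgeR adjusted p = 0.0489). Without Ctrl replicate 1, Klf5 and Zfp750 were lost (edgeR adjusted p of 0.249 and 0.246), without Ctrl replicate 2 all of them (0.508, 0.183 and 0.432 for Klf5, Grhl1 and Zfp750), and without TKO replicate 1 Grhl1 and Zfp750 (0.102 and 0.138).

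Recombination was mosaic, so basal-like cells of the TKO libraries were also split by derepression. Derepressed cells had UMIs of at least 2 of 8 genes that Ctrl cells barely express, among them Npffr1, Svop and Gria3, after thinning to 5000 UMIs, and silent cells had none. There were 268 and 218 derepressed and 310 and 326 silent cells in TKO replicates 1 and 2, with 388 and 359 between. In Ctrl replicates 1 and 2, 0 and 0 cells were derepressed and 13 and 17 between, which the choice of genes barely expressed in Ctrl fixes. The split is a range of cells and not a type, and no test was made over cells.

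Zfp750 stood out. Its level was 37.3 CPM (50 UMIs, exact Poisson 95% interval 27.7 to 49.2) in derepressed cells of TKO replicate 1 and 39.4 CPM (43 UMIs, 28.5 to 53.1) in those of TKO replicate 2. In silent cells it was 6.45 CPM (10 UMIs, 3.09 to 11.9) and 5.52 CPM (9 UMIs, 2.52 to 10.5), and in silent Ctrl cells 10.9 and 9.81 CPM. A Zfp750 UMI was found in 12.3% and 14.2% of derepressed cells against 2.58% and 2.15% of silent cells. The intervals did not overlap in either library. Cluster 15 held 42 and 49 of the derepressed cells, with 26 and 28 of those UMIs. Without it, Zfp750 was at 21.2 CPM (24 UMIs, 13.6 to 31.6) in derepressed against 5.86 CPM (9 UMIs, 2.68 to 11.1) in silent cells of TKO replicate 1. In TKO replicate 2 it was then at 17.8 CPM (15 UMIs, 9.94 to 29.3) against 5.52 CPM (9 UMIs, 2.52 to 10.5), with overlapping intervals. Grhl1 was at 8.96 and 11.01 CPM in derepressed against 4.52 and 4.29 CPM in silent cells, on 12 UMIs or fewer in each, with overlapping intervals. Grhl3 was at 23.1 and 17.4 against 16.1 and 5.52 CPM.

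Of the members called in basal-like cells, Klf4 was lower in derepressed than in silent cells of both TKO libraries, while Trp63 and Tfap2c differed in opposite directions in the 2 libraries. Trp63 was at 467 and 610.1 CPM in derepressed cells and at 453 and 615 CPM in silent cells, all below the 893 and 777 CPM of silent Ctrl cells. Tfap2c was at 75.4 and 66.1 against 69.0 and 70.6 CPM, below the 105.2 and 135 CPM of silent Ctrl cells. Klf4 was at 155 and 195 in derepressed against 228 and 223 CPM in silent cells, and Ovol1 at 14.2 and 3.67 against 32.9 and 11.04 CPM. Stress-led clusters held 25% and 13.8% of derepressed and 45.2% and 16.9% of silent cells, in the order of the Ovol1 values, and their part in them was not tested. Summed spinous markers were at 1504 and 2061 CPM in derepressed against 1698 and 1891 CPM in silent cells, higher in one library and lower in the other. Summed basal markers were lower in derepressed than in silent cells of both TKO libraries, at 11596 against 15095.5 and 15867 against 18289 CPM, and so were summed genes of cycling cells, at 835 against 999 and 732 against 1001 CPM. The part of either in the Zfp750 and Klf4 values was not tested. Cluster 15, led by derepressed genes such as Ptprt and Npffr1, held 69.5 CPM of Zfp750 and 10.6 CPM of Foxn1, against 5.36 to 16.8 and 1.10 to 2.02 CPM in the other basal-like clusters. These values pool 31 and 30 Ctrl with 53 and 57 TKO cells, and by library Zfp750 in cluster 15 was at 23.0 and 16.8 CPM in Ctrl (16 and 7 UMIs) and at 98.6 and 79.3 CPM in TKO (134 and 118 UMIs). Cluster 15 also held more of the suprabasal keratins, with 332.5 CPM of Krt10 and 278.4 CPM of Krt1 against 61.1 to 115.3 and 32.1 to 85.0 CPM in the other basal-like clusters, and their part in the Zfp750 and Foxn1 values was not tested.

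**Figure D5:**
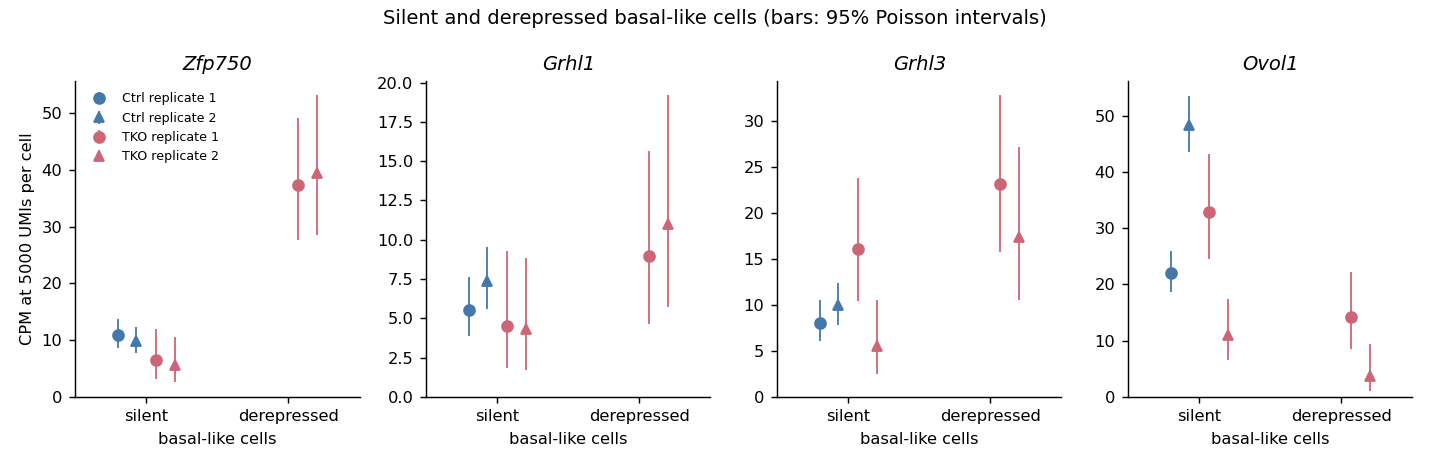
CPM of Zfp750, Grhl1, Grhl3 and Ovol1 (y axis, from 0) in silent and derepressed basal-like cells at 5000 UMIs per cell, by library, with bars for exact 95% Poisson intervals (counting error only). Derepressed TKO cells have 37.3 and 39.4 CPM of Zfp750 and silent TKO cells 6.45 and 5.52 CPM.

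Other transcription factors of the epidermis were looked at as a list of 27, chosen with earlier results of these data known. In basal-like cells 25 were tested, 7 were lowered and 1 was raised, against 4.71% and 8.42% of all genes, and the list's median was -0.45 beside -0.02 for all genes. Pou3f1, a POU factor of keratinocyte differentiation, went from 55.2 and 68.3 to 10.5 and 20.4 CPM (edgeR adjusted p = 0.0121), Sox9, a hair follicle factor, from 22.9 and 26.8 to 11.2 and 14.1 CPM (0.0177) and Klf3 from 141 and 147 to 80.5 and 96.7 CPM (0.0193). Id1, an inhibitor of basic helix-loop-helix factors, rose from 67.5 and 92.1 to 216 and 167 CPM (edgeR adjusted p = 0.0101). In hair follicle-like cells 12 of 25 were lowered and 0 raised, against 5.77% and 6.87%, among them Pou3f1, Klf3 and Prdm1, with a median of -0.75. Pou3f1 was lowered in all 4 classes, from 235 and 294 to 10.96 and 36.9 CPM in early suprabasal-like and from 198 and 258 to 34.1 and 62.0 CPM in spinous-like cells. Hopx, a homeodomain protein without DNA binding, was raised in both of those classes, from 21.2 and 19.5 to 182 and 311 CPM in spinous-like cells (edgeR adjusted p = 0.0112). In early suprabasal-like cells 1 of 23 was raised and 1 lowered, against 2.07% and 1.58% of genes, with a median of -0.19. In spinous-like cells 1 of 25 was raised and 1 lowered, against 1.17% and 0.509%, with a median of -0.06.

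Of 20 p63 targets, 20 were tested in basal-like cells, where 4 were lowered (Fras1, Cldn1, Dlx3 and Satb1) and 1 raised, against 4.71% of genes lowered and 8.42% raised. Fras1, a basement membrane protein, went from 890.3 and 794 to 549 and 555 CPM (edgeR adjusted p = 0.0154), and Cdkn1a, an inhibitor of the cell cycle that p63 represses, rose from 22.1 and 40.2 to 139 and 112 CPM (edgeR adjusted p = 0.00854). In hair follicle-like cells 4 of 20 tested were lowered, against 5.77% of genes, with Cldn1 from 59.6 and 62.7 to 14.1 and 17.0 CPM. Krt14 was raised from 2578 and 2420.5 to 3259 and 3344 CPM (edgeR adjusted p = 0.0368), against 6.87% of genes raised. In early suprabasal-like cells 20 were tested and in spinous-like cells 18. Fgfr2 and Satb1 were lowered in the first and Fras1 and Satb1 in the second, with 0 raised in either. Of all genes, 1.58% and 0.509% were lowered and 2.07% and 1.17% raised. The list's medians were -0.26, -0.30, -0.34 and -0.12 in basal-like, early suprabasal-like, spinous-like and hair follicle-like cells, against -0.02, -0.0023, -0.0011 and -0.02 over all genes tested.

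Of 24 cornified envelope and barrier genes, 16 were tested in basal-like cells, with 3 lowered, among them Tgm5 and Cers3, and 2 raised, Dmkn and Lor. The shares of all genes were 4.71% and 8.42%, so the raised count is near its background. In spinous-like cells 22 were tested, 2 were raised and 0 lowered, against 1.17% and 0.509% of genes, with a median of 0.25 (and of -0.13, -0.0080 and -0.57 in basal-like, early suprabasal-like and hair follicle-like cells): Sprr1a went from 5.92 and 8.33 to 86.4 and 88.1 CPM and Sprr1b from 136 and 57.7 to 918 and 1187 CPM (edgeR adjusted p of 0.00487 and 0.0315). Both encode cornified envelope precursors. Sprr1b and Hopx were also among the leading genes of the unnamed cluster of the unaligned clustering, which took in 88 and 270 of the TKO and 3 and 0 of the Ctrl spinous-like cells, and the part of those cells in the Sprr1a, Sprr1b and Hopx values was not tested. Of the 17 tested in early suprabasal-like cells, Sprr1b was raised and Klk7 and Tgm5 were lowered, against 2.07% and 1.58% of genes. Tgm5 was at 4.4 and 4.55 CPM in Ctrl with 0 UMIs in both TKO libraries, where 0 allows up to 1.22 and 0.872 CPM. In hair follicle-like cells 14 were tested. There 4 were lowered, Krtdap, Tgm5, Krt1 and Krt10, and 2 were raised, Lor and Dmkn, against 5.77% and 6.87% of genes.

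Among 9 mesenchymal genes that OVOL factors are known to hold down, 4 were tested in basal-like cells, and Vim (from 5.03 and 5.44 to 13.2 and 8.34 CPM, edgeR adjusted p = 0.0394) and Fn1 (from 16.2 and 23.9 to 35.4 and 35.9 CPM, edgeR adjusted p = 0.0402) were raised, where 8.42% of genes were. In hair follicle-like cells Vim was lowered, from 53.2 and 70.2 to 39.7 and 32.7 CPM, and Cdh2 was raised, with 0 UMIs in Ctrl, which allow up to 0.201 and 0.198 CPM, and 2.92 and 1.39 CPM in TKO, against 5.77% of genes lowered and 6.87% raised. In early suprabasal-like and spinous-like cells 0 were called by edgeR, with 0 and 1 at an unadjusted p under 0.05. Of all genes, 2501 of 11733 and 2362 of 13362 were under it. The list's medians were 0.80, 0.94, -0.35 and -0.02 over the 4, 3, 2 and 5 genes tested in basal-like, early suprabasal-like, spinous-like and hair follicle-like cells. Fibroblast markers summed to 761.8 to 1334 CPM in basal-like cells, with UMIs of all 6 markers in each library, and were lower in both TKO than in both Ctrl libraries; their part in the Vim and Fn1 values was not tested.

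Genes with the closest pattern to each member were sought over the 8 Ctrl sums among 6941 genes with a mean of at least 20 CPM. Sums of 1 library share its depth and its stress share, so these correlations are descriptions. Foxn1 was closest to Notch3 (r = 0.997), Grhl3 and Zfp750 both to Erbb3 (r = 0.995 and 0.991), Klf4 to Castor1 (r = 0.997), Trp63 to Zhx3 (r = 0.997) and Grhl1 to Zmiz2 (r = 0.992). Ovol1 was closest to Polr2e (r = 0.995), Klf5 to Mogs (r = 0.994) and Tfap2c, the least tightly matched, to Ssb (r = 0.978). The next in line were Ankrd22, Surf2, Ltv1, Egln3, Rb1cc1, Stard5, Cct5, Tomm20 and Mrpl40 in that order, with r from 0.968 to 0.995.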

How the data were processed

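The authors sorted cells, made 10x 3′ libraries and counted reads with Cell Ranger on GRCm39; the matrix headers give Cell Ranger 7.1.0. The deposited values are UMI counts per gene and barcode, not normalized, with no column of other samples (0). Labels give E16.5 while the study's litter list gives another stage; the labels were followed. Barcodes with at least 2000 genes and under 10% mitochondrial UMIs were kept, leaving 11221 of 19789, and 457 doublets called by Scrublet (scanpy 1.11.5) were left out. Keratinocytes were clustered on 2000 variable genes, 30 components aligned between libraries, 20 neighbours and Leiden resolution 1 (leidenalg 0.10.2), and classes were named from markers. Counts were summed per class and library and tested with edgeR 4.0.16 in R 4.3.3 (quasi-likelihood, TMM, filterByExpr, Benjamini-Hochberg over all genes tested, adjusted p under 0.05), checked on simulated counts. DESeq2 1.42.0 was an alternative. The study tested single cells; here libraries were the replicates. Exact intervals were computed with scipy 1.17.1 and cover counting error only.

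Named genes were the 9 members, up to 4 called genes of each list by adjusted p, and the 2 closest genes to each member; Satb1, Lor and Dmkn among the lists, and genes leading clusters, were named after their values were seen. The members and lists were chosen with earlier results of these data known. Alternatives covered the filter, scaling, test, depth, single libraries, the replicate block, doublets, cell filter, resolution, alignment and clustering genes; those leaving out clusters, or taking clusters alone, were added after the data were seen. 1 list gene and 1 upstream sequence are not reported here.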

Additional observations from a re-analysis of the deposited data

Results flagged for a closer look

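In 3 results a difference of the TKO effect between classes passed the interaction test on 16 sums from 4 libraries, with library as a term. Klf5 had a difference of -0.96 ± 0.17 log2 between hair follicle-like and basal-like cells (edgeR adjusted p = 0.0162), and its change was -1.51 in the first and -0.58 in the second. Grhl1 had a difference of -1.64 ± 0.31 between the same classes (edgeR adjusted p = 0.0261), with changes of -1.44 and 0.15. Its basal-like detection was low, at 2.67% to 3.38% of thinned cells, and the part of background in the basal-like value was not tested. Zfp750 had a difference of -0.73 ± 0.19 between spinous-like and basal-like cells (edgeR adjusted p = 0.0352), with changes of -0.07 and 0.64. Over their alternatives the adjusted p ranged up to 0.778, 0.183 and 0.625, and the differences ran from -1.26 to -0.23, from -1.82 to -1.25 and from -0.99 to -0.23. The Klf5 difference was -0.23 (edgeR adjusted p = 0.778) without cluster 13, the Pthlh-led hair follicle-like cluster, and no longer called. The Zfp750 difference was -0.34 without cluster 15, -0.23 with doublets kept, -0.32 with at least 3000 detected genes, -0.39 at Leiden resolution 0.5 and -0.48 with cells thinned, and was called in none of these.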

How the results depend on the processing

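Tfap2c in basal-like cells kept its call under 19 of 19 alternatives, Klf4 under 18 and Trp63 under 13. In hair follicle-like cells Klf5, Grhl1 and Tfap2c kept theirs under 16 of 16, Ovol1 under 15 and Trp63 under 10. The differences between classes kept theirs under 11 (Klf5), 12 (Grhl1) and 7 (Zfp750) of 17. Members called in basal-like, early suprabasal-like, spinous-like and hair follicle-like cells numbered 3, 0, 0 and 5, where 13.1%, 3.65%, 1.68% and 12.6% of all genes were called. Without an expression filter they were 6, 5, 2 and 5 (of genes 9.78%, 6.11%, 6.63% and 6.11%), with 7 differences between classes in place of 3. Leaving out 1 library gave 1 to 5, 0 to 2, 0 to 2 and 4 to 5 members (5.47% to 18%, 1.59% to 5.12%, 0.485% to 7.57% and 4.96% to 16.8% of genes) and 0 to 3 differences. DESeq2 called 4, 1, 0 and 5 (15.5%, 3.78%, 5.28% and 12.5%). At least 3000 detected genes gave 2, 2, 0 and 4 members (12.6%, 10.3%, 1.74% and 7.98%) and 0 differences, and unaligned components gave 3, 1, 2 and 5 (14.8%, 1.68%, 13.4% and 10.4%) and 4 differences. Keeping doublets gave 2, 0, 0 and 6 (11.1%, 4.15%, 2.82% and 15.3%) and 4 differences. Leiden resolution 0.5 and changed genes kept in clustering each gave 4 basal-like calls (13.4% and 13.7%) and 1 difference, which was Ovol1 and none of the 3 reported, and resolution 2 gave 2 differences. Basal-like calls were 5 without stress-led clusters (14.4%) 4 without cluster 3 (12.8%) and 2 without cluster 15 (11.7%), and hair follicle-like calls were 3 without cluster 13 (10.8%), with 2 differences. The causes were not tested. For the differences between classes, shares of all genes under these settings are not given here. Their counts therefore have no background beside them.

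With the replicate block the counts were 3, 0, 0 and 5 (11.1%, 3.09%, 0.883% and 14.1% of genes). The replicates share only a number, with 2 per group, and the block changed no call count.

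Signs turned in values that had not been called. With doublets kept, Grhl1 in basal-like cells was -0.12, Zfp750 in spinous-like and hair follicle-like cells 0.057 and -0.60, and Grhl3 in spinous-like cells 0.043. With at least 3000 genes Grhl1 in basal-like cells was -0.018. At resolution 0.5, Grhl1 in basal-like and early suprabasal-like cells was -0.11 and 0.037, Grhl3 in spinous-like and hair follicle-like cells 0.030 and 0.14, and Foxn1 in hair follicle-like cells 0.66. With unaligned components, Grhl1 in basal-like cells was -0.0074, Grhl3 in early suprabasal-like cells -0.62, Foxn1 in spinous-like cells -0.39 and Zfp750 in hair follicle-like cells -0.19. With changed genes kept, Grhl1 in basal-like and early suprabasal-like cells was -0.21 and 0.13, Foxn1 in spinous-like cells -0.013 and Zfp750 in hair follicle-like cells -0.071. With cells thinned, Foxn1 in basal-like cells was 0.21, Grhl1 in early suprabasal-like cells 0.052, Grhl3 in spinous-like cells 0.20 and Zfp750 in hair follicle-like cells -0.064. Foxn1 in spinous-like cells was -0.019 without a filter and -0.0073 with the replicate block. With 1 library left out in turn, these log2 changes crossed 0: Zfp750 (-0.32 to 0.22), Grhl3 (-0.52 to 0.55), Grhl1 (-0.26 to 0.24) and Foxn1 (-0.63 to 0.054) in early suprabasal-like cells, Zfp750 (-0.17 to 0.010), Grhl3 (-0.11 to 0.078), Grhl1 (-0.46 to 0.15) and Foxn1 (-0.30 to 0.25) in spinous-like cells, Zfp750 (-0.30 to 0.47) and Grhl3 (-0.94 to 0.26) in hair follicle-like cells.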
